A study of Homo sapiens with 12 samples.

Results

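The intervals described here are those that 4 ChIP-seq peak lists placed on the contigs of the human reference whose names start with GL000, and those that lie in a ribosomal DNA-like window of sequence 21, from 9820000 to 9840000 (GRCh37). They were chosen by name and position, with earlier results of these lists known. In all, 2035 of 164693 intervals met the rule. HepG2 and Huh7, liver-cancer cell lines labelled as hepatocellular carcinoma, were used untagged with an antibody to HOXA13, a homeodomain transcription factor, or after stable transfection with HA-tagged HOXA13 and with an antibody to the HA tag. Whether a tagged line was 1 clone or a pool, or which promoter drove the tagged gene, is not stated in these sources. The lists are called HepG2 anti-HOXA13 and HepG2 anti-HA, and Huh7 anti-HOXA13 with Huh7 anti-HA. Each came from 1 ChIP library set against the input of the same cells. No difference between lists therefore has a replicate check, and no test between conditions was made. The IgG libraries are not analysed here.

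Ribosomal DNA encodes the 45S precursor RNA, which RNA polymerase I transcribes in the nucleolus and which is cut into the 18S RNA of the small ribosomal subunit and the 5.8S and 28S RNAs of the large one. The genes lie in long tandem arrays on the short arms of the acrocentric chromosomes, and reference assemblies hold only a few of the copies. GL000220.1 is an unplaced contig known to carry such sequence. The RefSeq gene table (GRCh38.p14) lists RNA45SN5, the precursor gene, with RNA18SN5, RNA5-8SN5 and RNA28SN5 and then the pseudogenes RNA18SP3 and RNA5-8SP8 on a sequence without a chromosome. In annotations of GRCh37 the microRNA genes MIR3648 and MIR3687 lie inside the window of sequence 21, and both are known to match transcribed spacer of ribosomal DNA. Contigs with lower numbers, such as GL000193.1 and GL000199.1, are assigned to a chromosome without a position on it, so the contigs are not all unplaced.

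The sequences below are shown because they make a resemblance between ribosomal DNA and the surroundings of a MIR3648 gene visible at single-base level, as far as the microRNA genes named above stand for the window. No sequence of the window itself is printed. They are RefSeq microRNA entries (GRCh38.p14, sequence 21, plus strand), written 5′ to 3′. MIR10396B lies inside the precursor gene RNA45SN1, whereas MIR10396A lies outside any RNA45SN gene and is the gene listed next to MIR3648-2. Capitals mark the mature arms in the 3 hairpins, and the seed (bases 2 to 8) in the mature miR-3648. MIR6724-4 is a hairpin from the ribosomal DNA repeat, listed just ahead of RNA45SN1.
MIR6724-4: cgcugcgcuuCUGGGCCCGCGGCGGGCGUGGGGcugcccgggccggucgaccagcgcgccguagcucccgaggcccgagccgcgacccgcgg
MIR10396B: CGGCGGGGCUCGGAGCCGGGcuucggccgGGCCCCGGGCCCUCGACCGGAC
MIR10396A: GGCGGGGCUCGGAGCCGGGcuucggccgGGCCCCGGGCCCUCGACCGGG
miR-3648: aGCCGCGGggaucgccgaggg
The hairpins of MIR10396B (51 bases) and MIR10396A (49 bases) share an identical run of 48 bases. G and C make up 83.7% of MIR6724-4, 86.3% of MIR10396B, 87.8% of MIR10396A and 81.0% of miR-3648. A read of this length could therefore match a ribosomal gene and the copy outside it equally well. How reads with several matches were placed is not given in the sources used here.

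GL000220.1 held a dense stretch of intervals that ran together in both HepG2 lists and stood in short pieces in both Huh7 lists. The stretch starts at the first interval of at least 500 bp with −log10 q of 5 or more, at 101553, and runs to the farthest interval end in any list, at 161802 (60250 bp). Both bounds are interval edges of HepG2 anti-HA, so high coverage in that list follows from the definition. The folds of the lines are likewise compared at a place that signal in that list picked out. No annotation of this build was used to tie the stretch to ribosomal genes. In HepG2 anti-HOXA13, 11 intervals covered 94.6% of it. In HepG2 anti-HA, 3 intervals covered 99.6%. In Huh7 anti-HOXA13, 6 intervals covered 2.06%, and in Huh7 anti-HA, 28 intervals covered 20.5%. The fold over input, which the authors deposited for the summit of each interval, also set the lines apart without overlap: it lay between 8.13 and 16.0 in HepG2 anti-HOXA13 and between 5.96 and 17.6 in HepG2 anti-HA, but between 1.33 and 1.69 in Huh7 anti-HOXA13 and between 1.24 and 2.67 in Huh7 anti-HA. On the first part of the same contig, ahead of the stretch, the 36 intervals in HepG2 anti-HOXA13 and the 15 in HepG2 anti-HA reached at most 3.80-fold and 3.41-fold. The Huh7 lists held 1 and 2 intervals there. By the rule for the start, no interval of at least 500 bp with −log10 q of 5 or more could lie in that part. The contrast between the parts therefore follows in part from the definition.

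The highest HepG2 anti-HOXA13 summit of the stretch lay in 160854 to 161796, at 16.0-fold (13.7 to 18.6, the 95% Poisson interval of the ChIP pileup, which covers counting error only). It stood on a pileup of 166 ChIP fragments where 9.45 were expected from input. The interval 113081 to 116498 followed with 14.1-fold (12.2 to 16.3). The longest interval, 116890 to 151886, ran over 34997 bp and carried 1 deposited summit, with 10.6-fold (9.20 to 12.2). A single fold thus stands for most of the stretch in this list.

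HepG2 anti-HA ran together still further. Its interval 101553 to 122083 stood at 17.6-fold (15.5 to 19.8), from a pileup of 264 where 14.1 were expected. Its interval 130096 to 161802 stood at 15.9-fold (13.95 to 18.0). Between them, 122191 to 129988 reached 5.96-fold (5.02 to 7.03), with a pileup of 139 against 22.5 expected, the lowest of the 3 summits in this list. The only summit of 130096 to 161802 lies at 150426, so the first part of that interval has no fold of its own.

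Huh7 anti-HA held its highest folds in the outer parts of the stretch and its lowest in the middle. The interval 113263 to 113875 reached 2.67-fold (2.17 to 3.26), with a pileup of 95 where 34.9 were expected. The interval 148872 to 151052 reached 2.64-fold (2.16 to 3.20), and 104900 to 107085 reached 2.54-fold (2.08 to 3.07). Only 4 intervals lay from 131296 to 145083, at 1.24-fold to 1.34-fold, with ChIP pileups of 137 to 143 and expected pileups of 102 to 113. Those 4 had more ChIP fragments than the intervals with the highest folds, and a still higher expected level. They lie inside the HepG2 anti-HA interval 130096 to 161802, not at its lowest summit.

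Huh7 anti-HOXA13 had the lowest median fold of the 4 lists in the stretch, 1.45 against 1.52 in Huh7 anti-HA, whose single lowest value was lower. Its highest value there was 1.69-fold (1.34 to 2.11) at 161037 to 161189, and none of its 6 intervals there passed −log10 q of 0.492. The largest pileup, 177 fragments at 117820 to 118043, met an expected pileup of 101, for 1.42-fold (1.22 to 1.64). The ChIP library was the larger one in this list and its pileup is scaled by 0.812 before the fold is taken.

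Both parts of the ratio differed between the lines. The expected pileup has a floor in each list, called its background, which was 1.73 and 2.62 for the anti-HOXA13 and anti-HA lists of HepG2 and 2.60 and 2.61 for those of Huh7. At summits in the stretch the expected pileup stood at 5.47 to 12.5 times this background in HepG2 anti-HOXA13 and at 5.37 to 8.59 times in HepG2 anti-HA. It stood at 14.2 to 38.8 times in Huh7 anti-HOXA13 and at 10.7 to 43.1 times in Huh7 anti-HA. The medians were 8.82 and 5.61 times in HepG2 and 24.2 and 21.4 times in Huh7 (anti-HOXA13 and anti-HA). The expected pileup was thus mostly higher at these summits in Huh7, relative to each list's background. The ChIP pileup went the other way, with 62.6 to 115 times the background in HepG2 anti-HOXA13 and 53.1 to 101 times in HepG2 anti-HA, against 24.3 to 55.2 times in Huh7 anti-HOXA13 and 19.2 to 62.8 times in Huh7 anti-HA. Its medians were 110 and 94.7 times in HepG2 and 34.5 and 36.8 times in Huh7. These values come from few summits per list, set at different places, and from 1 library each.

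**Figure D1:**
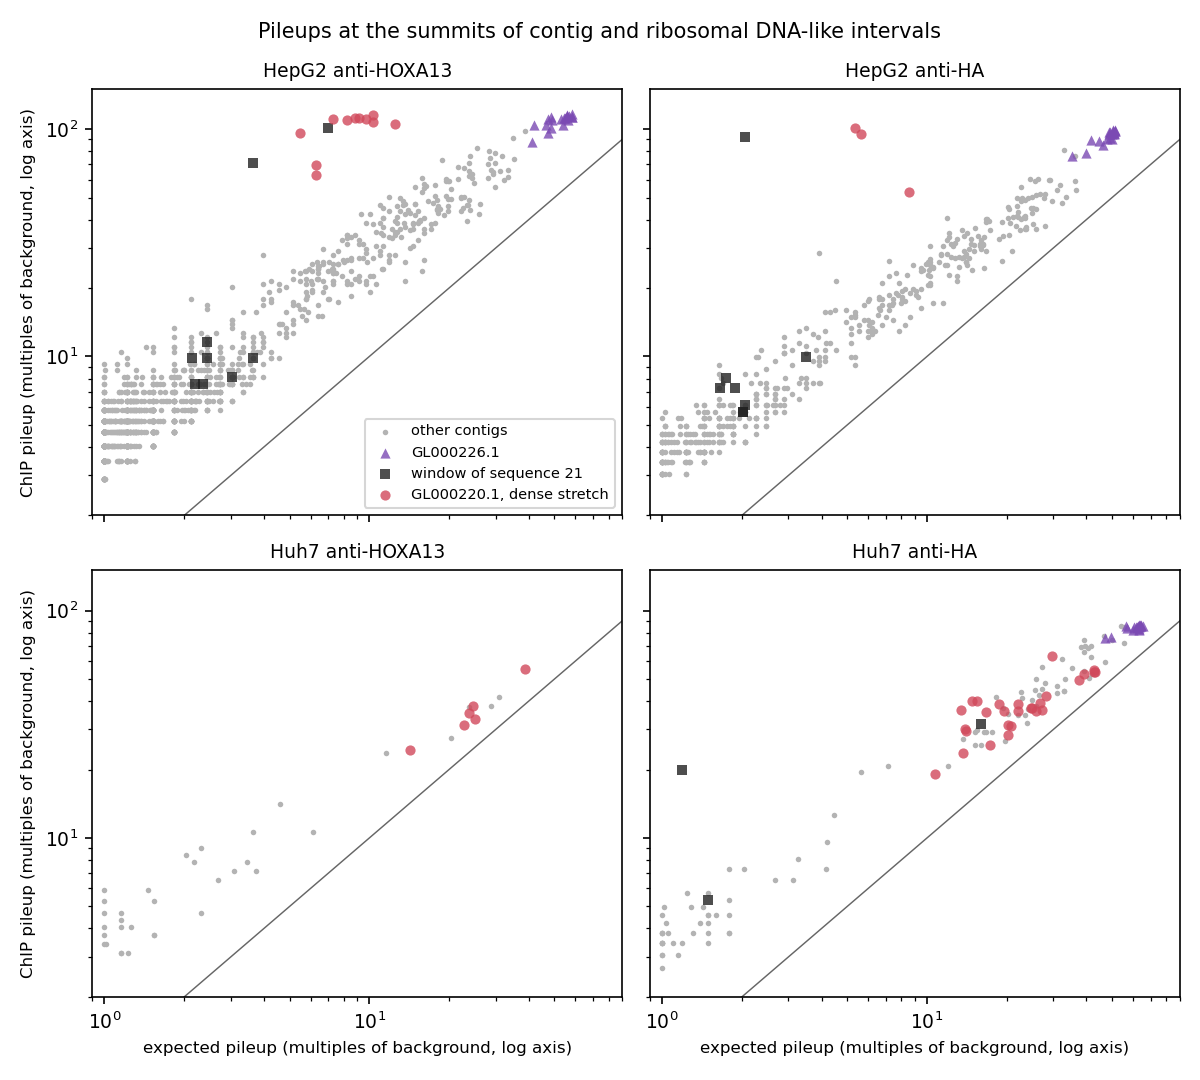
ChIP pileup against expected pileup at the summit of each contig or window interval, both in multiples of the list's background on log axes, with 1 panel for each list. Circles are the dense stretch of GL000220.1, triangles GL000226.1, squares the window of sequence 21, grey points other contigs, and the line marks equal values; in HepG2 the circles lie far above the other contigs at the same expected pileup, whereas in Huh7 they lie among them.

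In HepG2 anti-HOXA13 and Huh7 anti-HA, the stretch holds the same arrangement of intervals more than once. Among all interval edges there, the distance that recurred most often was 43970 bp, with 9 pairs of edges in HepG2 anti-HOXA13 (43970 to 43975 bp) and 9 in Huh7 anti-HA (43969 to 43970 bp). The remaining lists, with few edges, did not give this distance as their most frequent. HepG2 anti-HA had at most 1 pair (31794 to 39739 bp) and Huh7 anti-HOXA13 at most 2 (49917 to 51001 bp). Shifted by 43970 bp, an interval of the first copy met one of the second copy in 12 pairs that were compared. Pairs with the long HepG2 anti-HOXA13 interval 116890 to 151886, or within HepG2 anti-HA, also met but are not among the 12. The anti-HOXA13 lists gave 4 in HepG2 and 1 in Huh7, and Huh7 anti-HA gave 7, of which 2 share an interval. In each of the 12 the Poisson intervals of the folds overlapped, and the higher fold was 1.03 to 1.30 times the lower. A pair outside the 12 differed: 116890 to 151886 stood at 10.6-fold (9.20 to 12.2). Shifted, it met 160854 to 161796, at 16.0-fold (13.7 to 18.6), without overlap of the Poisson intervals. In the other pairs left out these overlapped. In Huh7 anti-HA the pair 104900 to 107085 and 148872 to 151052, named above, both had a pileup of 104, with summits at 106480 and 150461. In HepG2 anti-HOXA13 the pair 109005 to 111660 and 152977 to 155637 both had a pileup of 193, at 11.6-fold and 12.0-fold. The copies are not independent measurements, since reads from identical sequence can be placed in either.

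In the window of sequence 21, 3 lists held a sharp block of enrichment and Huh7 anti-HOXA13 held no interval. HepG2 anti-HOXA13 had 9 intervals, HepG2 anti-HA had 8 and Huh7 anti-HA had 3. In HepG2 anti-HOXA13 the block was split into 9825441 to 9826456, at 17.0-fold (14.1 to 20.2; pileup 123 where 6.30 were expected), and 9826713 to 9833645, at 13.4-fold (11.5 to 15.5; 174 where 12.1 were expected). In HepG2 anti-HA it was 1 interval, 9825450 to 9833610, at 38.0-fold (33.4 to 43.1; 242 where 5.39 were expected). Huh7 anti-HA held only the start of it, 9825534 to 9826345, at 12.9-fold (9.70 to 16.9; 52 where 3.11 were expected), and a weaker piece, 9826894 to 9827149, at 1.96-fold (1.56 to 2.42; 83 where 41.9 were expected).

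The summits at the start of the block were at 9826028 in HepG2 anti-HOXA13, at 9826208 for HepG2 anti-HA and at 9826236 in Huh7 anti-HA. In Huh7 anti-HA the expected pileup was 1.19 times the background at the first of its intervals and 16.1 times at the second, with ChIP pileups of 52 and 83. Thus the window gave the highest fold of the Huh7 anti-HA members, at a place where input was near background, and the dense stretch of GL000220.1 gave low folds where input was raised. The block ended alike in the HepG2 lists, within 9833610 to 9833645. Past it, 7 intervals in each HepG2 list ran at 2.40-fold to 4.04-fold with anti-HOXA13 and at 2.53-fold to 3.94-fold with anti-HA, and Huh7 anti-HA had 1, at 3.06-fold.

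Outside the window, the nearest interval before it lay 78059 bp away in HepG2 anti-HOXA13 and 75544 bp away in HepG2 anti-HA, at 3.04-fold and 3.32-fold. In the Huh7 lists it lay 116588 (anti-HOXA13) and 97436 bp (anti-HA) away, at 2.88-fold and 2.66-fold. After the window the next interval came within 211 bp in HepG2 anti-HOXA13, at 2.85-fold, and within 611 bp in HepG2 anti-HA, at 3.18-fold. In Huh7 it came after 761124 bp with anti-HOXA13 and after 128344 bp with anti-HA, at 2.61-fold and 3.32-fold. The upper bound of the window thus cuts a run of weak HepG2 intervals, while the block itself lies well inside.

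Ranked by fold among the contig and window intervals alone, GL000220.1 and the window supplied all of the first 10 in HepG2 anti-HOXA13 and fewer in the other lists. In HepG2 anti-HOXA13, 8 lay on GL000220.1 and 2 in the window, at 10.2-fold or more. In HepG2 anti-HA, 3 lay on GL000220.1 and 1 in the window, and the other 6 on other contigs. In Huh7 anti-HA, the window gave the first, at 12.9-fold, and the other 9 lay on contigs other than GL000220.1, at 3.17-fold to 3.83-fold. In Huh7 anti-HOXA13 all 10 lay on contigs other than GL000220.1, at 3.09-fold to 4.56-fold. These are not the highest folds of the whole lists, which are counted below.

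Across all contigs, the HepG2 lists held more intervals on more contigs than the Huh7 lists, in lists of unequal length. HepG2 anti-HOXA13 held 1308 members (1299 on contigs), 1.57% of its 83156 intervals (exact binomial 95% interval 1.49 to 1.66%). HepG2 anti-HA held 543 (535 on contigs), 1.34% of 40657 (1.23 to 1.45%). Huh7 anti-HOXA13 held 40, all on contigs, 0.373% of 10710 (0.267 to 0.508%), and Huh7 anti-HA held 144 (141 on contigs), 0.477% of 30170 (0.403 to 0.562%). The shares were thus higher in both HepG2 lists than in either Huh7 list, and the binomial ranges of the Huh7 lists overlapped. These ranges treat every call as independent, but calls clustered. The 5 contigs with most intervals held 50.7% to 80.1% of the contig members of a list. The ranges therefore do not measure how a share varies between libraries, and a difference between the lines was not tested. At q of 0.05 or less the order of the shares changed, with 4.16% and 1.52% in HepG2 (anti-HOXA13 and anti-HA) and 0.786% and 2.12% in Huh7.

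The members lay on 47 contigs, of which HepG2 anti-HOXA13 held 44, HepG2 anti-HA 34 and each Huh7 list 18. With each list held to its 10710 best intervals by q these numbers were 31, 16, 18 (Huh7 anti-HOXA13) and 13 (Huh7 anti-HA), so that HepG2 anti-HA fell below Huh7 anti-HOXA13. Every list had an interval on 11 contigs: GL000192.1, GL000195.1, GL000199.1, GL000205.1, GL000214.1, GL000216.1, GL000218.1, GL000220.1, GL000221.1, GL000223.1 and GL000225.1. A further 13 contigs appeared in 1 list only, 10 of them in HepG2 anti-HOXA13 and 2 in HepG2 anti-HA (GL000191.1 and GL000196.1), and 1 in Huh7 anti-HA (GL000197.1). HepG2 anti-HA held 2 intervals on GL000191.1, up to 4.72-fold (3.09 to 6.93), and the single GL000197.1 interval stood at 2.77-fold (1.42 to 5.01). Of the 32 contigs in both HepG2 lists, 28 had more anti-HOXA13 intervals and only GL000223.1 had more anti-HA intervals, with 2 against 1; the anti-HOXA13 list is also the longer one, with 83156 intervals against 40657.

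**Figure D2:**
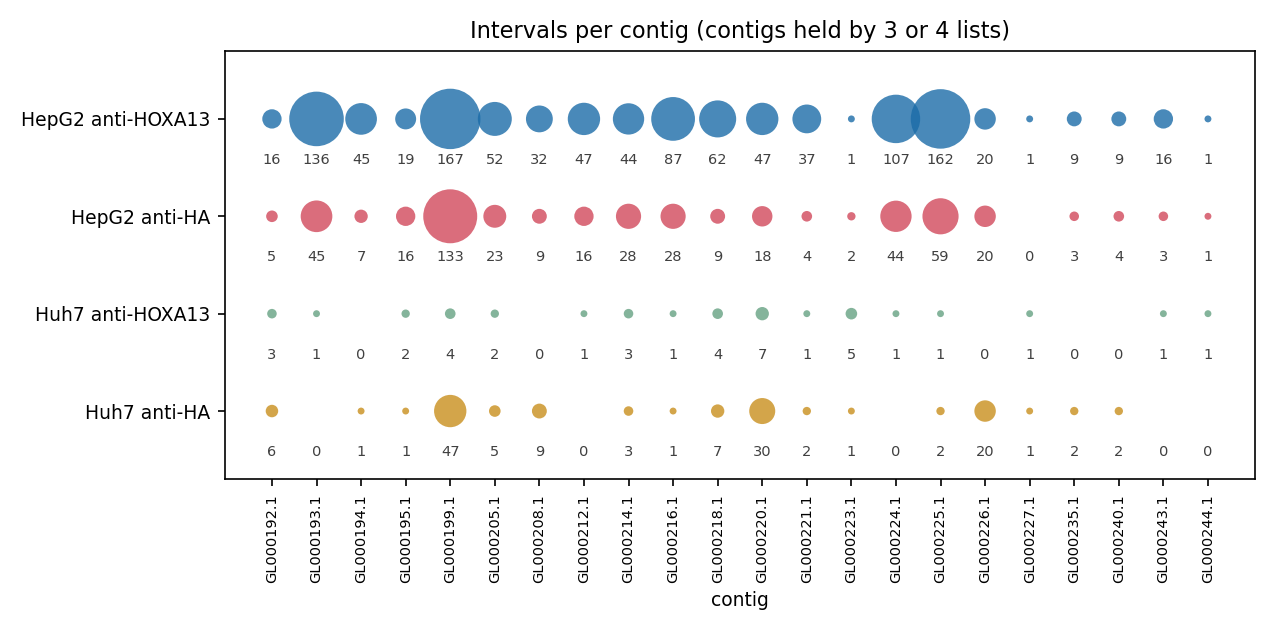
Number of intervals on each contig that 3 or 4 lists hold (horizontal axis, contigs; vertical axis, lists), with the disc area rising with the number printed below it. GL000199.1 leads in HepG2 anti-HOXA13 (167), HepG2 anti-HA (133) and Huh7 anti-HA (47), and GL000226.1 has 20 intervals in each of those lists.

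GL000199.1 held the most intervals in 3 lists, with 167 in HepG2 anti-HOXA13, 133 for HepG2 anti-HA and 47 in Huh7 anti-HA, and held 4 in Huh7 anti-HOXA13. Of these, 114, 73, 11 and 0 reached −log10 q of 5, a level that 4.73%, 23.3%, 1.01% and 2.52% of all intervals reached in those lists. Their folds were modest: the highest was 4.73 (3.35 to 6.50), 3.86 (2.68 to 5.40), 2.80 (2.12 to 3.64) and 1.58 (1.31 to 1.88), in the same order. Input was raised along the contig, with a median expected pileup of 8.82, 9.88, 25.9 and 26.3 times the background. GL000199.1 therefore combined many significant intervals with folds below those of the GL000220.1 stretch in HepG2, and its median input stood higher in Huh7 than in HepG2, as in that stretch.

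GL000226.1, a contig whose intervals end by 14957, held 20 intervals in each of the HepG2 lists and in Huh7 anti-HA, and none in Huh7 anti-HOXA13. Folds were low and even, at 1.92 to 2.47 with anti-HOXA13 and 1.81 to 2.16 with anti-HA in HepG2, and 1.29 to 1.61 in Huh7. Starts followed each other at a median of 783, 775 and 775 bp, in the same order. The nearest summits of different lists lay a median of 17 bp apart between the HepG2 lists, 16.5 bp between HepG2 anti-HOXA13 and Huh7 anti-HA, and 15.5 bp between the anti-HA lists. The 3 lists thus marked nearly the same positions over the whole contig.

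The pileups on GL000226.1 lay close to the highest that the lists contain. The highest ChIP pileup in a list was exactly 2 times its shortest interval in 3 lists, 206 in HepG2 anti-HOXA13 (13 summits), 270 in HepG2 anti-HA (9 summits) and 228 in Huh7 anti-HA (10 summits). In Huh7 anti-HOXA13 it was 194, where 2 times the shortest interval is 246. MACS2 by default keeps 1 read per position and strand, which would set such a limit; its settings in this study are not given in these sources. Summits on GL000226.1 held 73.8 to 97.1% of that limit in HepG2 anti-HOXA13, 74.1 to 96.3% in HepG2 anti-HA and 86.8 to 99.1% in Huh7 anti-HA, while the median expected pileup was 54.1, 49.5 and 62.9 times the background. With ChIP and expected pileup both at the highest value of their list, the fold is 1.90, 1.85 and 1.29. The highest summits of the dense stretch of GL000220.1 also came near the limit, with up to 96.6% of it in HepG2 anti-HOXA13 and 97.8% in HepG2 anti-HA, against 71.9% and 72.0% in the anti-HA and anti-HOXA13 lists of Huh7. The lowest pileups in the stretch stood at 52.4% and 51.5% of the limit in the same HepG2 lists. The medians were 190 where the limit is 206 and 248 where it is 270, so most summits lay near it. In Huh7 anti-HOXA13 no summit reached the limit, and 177 fragments are 91.2% of the highest pileup in that list.

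Other contigs with many intervals separated HepG2 from Huh7 by number, in lists of unequal length. The anti-HOXA13 and anti-HA lists hold 83156 and 40657 intervals in HepG2 and 10710 and 30170 in Huh7. GL000225.1 held 162 intervals in HepG2 anti-HOXA13 and 59 in HepG2 anti-HA, against 1 and 2 in the anti-HOXA13 and anti-HA lists of Huh7. GL000193.1 held 136, 45, 1 and 0, GL000224.1 held 107, 44, 1 and 0, and GL000216.1 held 87, 28, 1 and 1, in the same order. The median fold on GL000225.1 was 3.30 in HepG2 anti-HOXA13 and 2.68 in HepG2 anti-HA, and the median expected pileup was 1.37 and 1.65 times the background, so most of these intervals lay where input was near background. GL000216.1 carried the highest fold of HepG2 anti-HOXA13 off GL000220.1 and the window, 6.85 (4.72 to 9.63) at 160121 to 160231. GL000195.1 carried that of HepG2 anti-HA, 6.76 (5.34 to 8.45) at 131890 to 132158, from a pileup of 75 where 10.2 were expected. GL000193.1 and GL000243.1 followed by contig in HepG2 anti-HOXA13, with 5.82-fold (3.48 to 9.24) and 5.86-fold (3.44 to 9.43).

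Huh7 anti-HOXA13 had its highest contig folds on GL000223.1, which held 5 intervals in that list. The interval 47089 to 47736 stood at 4.56-fold (2.86 to 6.97), from a pileup of 19 over an expected pileup at background, and 48231 to 48389 stood at 4.11-fold (2.51 to 6.41). HepG2 anti-HOXA13 had its only GL000223.1 interval at the same place, 47273 to 47404, at 3.30-fold (1.63 to 6.15). The anti-HA lists instead met each other elsewhere on the contig, with 68435 to 68732 at 3.90-fold (2.60 to 5.64) in HepG2 and 68516 to 68635 at 3.60-fold (1.99 to 6.08) in Huh7. These intervals rest on 8 to 26 fragments. In Huh7 anti-HA the highest contig folds off the window were 3.83 (2.17 to 6.36) on GL000192.1 at 519304 to 519418 and 3.77 (2.21 to 6.06) on GL000205.1 at 121696 to 121863.

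Set against their own lists, members held a clearly larger share of intervals with −log10 q of 5 or more in HepG2 anti-HOXA13 and Huh7 anti-HA. At q of 0.05 or less their share was larger in every list, on only 8 members in Huh7 anti-HOXA13. Median folds of members were not higher except by a small margin in HepG2 anti-HOXA13. An interval is called strong at −log10 q of 5 or more. Strong members numbered 246 of 1308 (18.8%) in HepG2 anti-HOXA13, where 4.73% of all intervals were strong. They numbered 138 of 543 (25.4%) in HepG2 anti-HA against 23.3% of the list, and 20 of 144 (13.9%) in Huh7 anti-HA against 1.01%. In Huh7 anti-HOXA13 0 of 40 were strong, which by 3 counts of 40 allows a share of up to 7.5%, against 2.52% of the list. The HepG2 anti-HA share was thus near that of its list. At q of 0.05 or less the members numbered 589 (45.0%; list 17%), 337 (62.1%; list 54.5%), 8 (20%; list 9.51%) and 55 (38.2%; list 8.61%), in the order HepG2 anti-HOXA13 then anti-HA, and Huh7 anti-HOXA13 then anti-HA.

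At least 5-fold over input stood 34 members of HepG2 anti-HOXA13 (2.60%; list 0.913%), 5 of HepG2 anti-HA (0.921%; list 9.44%), 0 of Huh7 anti-HOXA13 (list 1.92%) and 1 of Huh7 anti-HA (0.694%; list 0.0729%). Of the 34, 11 lay on GL000220.1. The median fold of members against all intervals was 2.93 against 2.90, 2.42 against 2.76, 2.27 against 2.69 and 1.73 against 2.54, in the same order. HepG2 anti-HA thus had few contig intervals at the folds it reached elsewhere, apart from the 4 on GL000220.1 or in the window and 1 on GL000195.1.

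Raised input, an expected pileup over 3 times the background, moved with the strong calls. It underlay 369 members of HepG2 anti-HOXA13 (28.2%, 25.8 to 30.7%; list 6.66%), 261 of HepG2 anti-HA (48.1%, 43.8 to 52.4%; list 23.3%), 17 of Huh7 anti-HOXA13 (42.5%, 27.0 to 59.1%; list 10.1%) and 106 of Huh7 anti-HA (73.6%, 65.6 to 80.6%; list 11.4%). Among members with raised input 59.6%, 49.0%, 0% and 17.9% were strong, against 2.77%, 3.55%, 0% and 2.63% of the others. Their median folds were lower, at 2.68 against 2.93, 2.11 against 2.66, 1.58 against 2.96 and 1.58 against 2.72. The same fold is more significant on more fragments, and members with raised input had median ChIP pileups of 47, 68, 88 and 115 against 9, 12, 14 and 10.5. The part of raised input in the strong calls was not tested. Within members without raised input, the window interval of HepG2 anti-HA (38.0-fold) and that of Huh7 anti-HA (12.9-fold) had the highest folds.

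Members of different lists met mostly where input was raised. Of the HepG2 members, 353 of 1308 anti-HOXA13 intervals (27.0%) overlapped 352 of 543 anti-HA intervals (64.8%) by at least 1 bp. Over all intervals of these lists the shares were 7.56% and 16.1%. Of the 144 Huh7 anti-HA members, 110 (76.4%, 68.6 to 83.1%) overlapped 86 (6.57%) of the HepG2 anti-HOXA13 members and 103 (71.5%, 63.4 to 78.7%) overlapped 73 (13.4%) of the HepG2 anti-HA members. Over all Huh7 anti-HA intervals these shares were 5.09% and 11.9%. The 110 comprised 47 on GL000199.1, 28 on GL000220.1, 20 on GL000226.1, 3 in the window and others. In the dense stretch of GL000220.1, HepG2 anti-HOXA13 and HepG2 anti-HA covered 94.6% and 99.6%, so overlap of Huh7 intervals there was nearly fixed in advance. Of the 40 Huh7 anti-HOXA13 members, 19 (47.5%, 31.5 to 63.9%) overlapped 18 (1.38%) in HepG2 anti-HOXA13, 16 (40%) overlapped 12 (2.21%) in HepG2 anti-HA and 3 (7.5%) overlapped 3 (2.08%) in Huh7 anti-HA. Over the whole Huh7 anti-HOXA13 list the shares were 4.155%, 3.51% and 2.08%. Raised input underlay 93.6% of the Huh7 anti-HA members that overlapped HepG2 anti-HOXA13 and 8.82% of those that did not. Overlap on these contigs thus took place largely where the expected pileup was high.

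Huh7 anti-HOXA13 met all the other lists at 3 intervals, all with raised input and none above 1.69-fold. They were GL000199.1, 75686 to 75815, at 1.35-fold (1.13 to 1.59), and the intervals on GL000220.1 at 117820 to 118043 and 161037 to 161189, given above. At the last of these, HepG2 anti-HOXA13 had its highest GL000220.1 fold, 16.0, and Huh7 anti-HA held 160970 to 161086 at 1.48-fold (1.15 to 1.87). HepG2 anti-HA met this place only through its interval 130096 to 161802, whose summit lies at 150426. The folds of the other lists at the end of the stretch ran from 1.48 in Huh7 anti-HA to 16.0 in HepG2 anti-HOXA13. HepG2 anti-HOXA13 and HepG2 anti-HA intervals covered 94.6% and 99.6% of the stretch. Nearly any Huh7 interval there would therefore meet both, and the meeting of all lists carries little information.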

How the data were processed

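The submitters' processing notes name BWA and MACS2; neither version nor setting is given in the sources used here. Those notes also name GRCh38, whereas the GL000 names and a decoy sequence in the lists are those of GRCh37 with decoy, so positions are 1-based GRCh37 and stand as deposited. Each of the 4 lists holds, per interval, the authors' deposited score, their fold (a ratio to input at the summit), their −log10 p and −log10 q, and another whole number, the summit's distance from the start. The lowest −log10 p was 2.00 in each list and the lowest −log10 q was 0, so the lists were not limited on q.

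From fold and p, both pileups at a summit, the ChIP one in whole fragments, were recovered through the formulas MACS2 publishes (1 is added to each pileup before the ratio); this succeeded for all members and for at least 99.99% of each list, and was tested on simulated data. The expected pileup is the level that MACS2 derived from input, not an input count at the summit, and statements on input rest on it. Depth per library is not in the lists. The background pileup, taken after the scaling of the libraries, serves as the unit within each list and is not a measure of depth. Shares carry exact Clopper-Pearson intervals and folds Poisson intervals of the pileup (95%, counting error only); a share of 0 carries a limit of 3 counts. Overlap needed 1 bp. The labels give 1 library per condition, so groups were set side by side without a test. Members and lists of contigs were chosen with earlier results of these data known. Named were GL000220.1, the window with its nearest neighbours, the 10 highest folds per list, contigs in every list or in 1 list, and the 5 contigs with most intervals or highest fold per list; GL000226.1 was among these by number. The pileup limit, the repeat distance, the bounds of the dense stretch and the positions shared on GL000223.1 and GL000226.1 were looked for after the values were seen. Alternatives were other limits on q, equal list lengths, other overlaps, other multiples for raised input and other summaries of fold. A density per kb was planned and not run, since contig lengths were not used here; genome sequence of that build was not used either. Scripts used Python 3.11.15 with scipy 1.17.1, pandas 2.3.3 and numpy 2.4.6, and figures matplotlib 3.10.9.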

Additional observations from a re-analysis of the deposited data

How the results depend on the processing

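No paired analysis was possible because each condition had 1 library. Of 77 alternatives to 31 values, 31 stayed within the spread set for them and 46 moved. Values below are in the order HepG2 anti-HOXA13, HepG2 anti-HA, Huh7 anti-HOXA13, Huh7 anti-HA. The members' share of a list became 4.16%, 1.52%, 0.786% and 2.12% at q of 0.05 or less, and 6.26%, 1.46%, 0% and 6.58% among strong intervals. Held to the 10710 best intervals by q it became 4.93%, 1.56% and, for Huh7 anti-HA, 0.878%, and without the decoy sequence 1.78% and 1.53% in HepG2. The higher share in HepG2 than in Huh7 therefore did not hold for Huh7 anti-HA at q of 0.05 or among strong intervals, where it lay above HepG2 anti-HA and, among strong intervals, also above HepG2 anti-HOXA13. Contigs with an interval fell to 7 and 8 in the Huh7 lists at q of 0.05, to 15, 14, 0 and 3 among strong intervals, and to 16 in HepG2 anti-HA at equal length, below the 18 of Huh7 anti-HOXA13; contigs in every list fell from 11 to 2, 0 and 4. Strong members gave way to 45.0%, 62.1%, 20% and 38.2% at q of 0.05. Raised input, counted from 2 or 5 times the background, was 41.7% or 21.2% of members in HepG2 anti-HOXA13 (list 9.86% or 4.27%). In HepG2 anti-HA it was 61.5% or 40.9% of members (list 38.9% or 10.7%). On GL000220.1 the median fold over all intervals was 2.66, 2.57 and, in Huh7 anti-HA, 1.58, and the mean weighted by length was 9.82, 14.5 and 2.10; the fold between the lines is thus smaller in the median interval. With summits within 100 bp in place of 1 bp of overlap, 12 and 71 members of Huh7 anti-HOXA13 and Huh7 anti-HA met HepG2 anti-HOXA13, and 10 and 64 met HepG2 anti-HA. At q of 0.05 these were 4 of 8 and 49 of 55, and 3 of 8 and 49 of 55, and 0 Huh7 anti-HOXA13 members met Huh7 anti-HA. Fewer intervals enter at a stricter q; the cause of the other shifts was not tested.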
